A study of Caenorhabditis elegans with 2 samples.

Results

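FLT-1, also named BAZ-2, is a C. elegans protein related to the BAZ2 proteins of vertebrates, which are large chromatin proteins known as partners of ISWI-type remodelling enzymes. Its positions in the early embryo were read here at the nuclear genes for oxidative phosphorylation. A gene was a member when it was protein-coding and its name matched a fixed set of gene name stems for subunits of complexes I to V, for cytochrome c and for numbered cox genes. The stems matched 74 of 19973 protein-coding genes on the nuclear chromosomes. They fell into 35 genes of complex I, 5 of complex II, 7 of complex III, 2 for cytochrome c, 7 subunits of complex IV, 8 assembly factors of complex IV and 10 genes of complex V. The assembly factors, cox-10, cox-11 and cox-14 to cox-19, entered because they share the cox stem with the subunits.

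The study profiled 1 group with 2 biological replicates. The worms were of strain OP797, in which the integrated transgene wgIs797 carried a fosmid copy of flt-1 joined to the TY1, EGFP and 3xFLAG tags, beside unc-119(+), in an unc-119 (tm4063) background. Embryos of 1 hour were collected after egg bleaching, and chromatin bound by the tagged protein was recovered with antibody against the fluorescent tag. The tagged protein came from a transgene, whole embryos were used, and no control library, second condition or expression data were analysed here, so the cells that gave a peak cannot be told apart.

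Oxidative phosphorylation takes place in the inner mitochondrial membrane. Complexes I and II pass electrons from NADH and succinate to ubiquinone, complex III passes them on to cytochrome c, and complex IV gives them to oxygen. Complexes I, III and IV pump protons, and complex V, the ATP synthase, uses the gradient to make ATP. Most subunits are encoded in the nucleus and imported, and a few are encoded by mitochondrial DNA, so the genes studied here cover the nuclear share of the machine. Many C. elegans transcripts are trans-spliced to a short leader, and their annotated start can then lie downstream of the place where transcription begins.

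FLT-1 had a promoter peak at 14 of the 74 genes in the list called on both replicates together and cut at a threshold on the irreproducible discovery rate (IDR), here the thresholded list. The IDR is low for peaks whose ranks repeat between the inputs compared. A promoter peak is one whose summit lay within 500 bp before or 200 bp after any annotated start of the gene. The share was 18.9%, with an exact Clopper-Pearson 95% interval of 10.7 to 29.7%, where 2.88% of all protein-coding genes had such a peak. The peaks lay at ndab-1, ndua-2, ndub-5, nduf-11 and nuo-2 of complex I, mev-1 of complex II, cyc-1 of complex III, cyc-2.1 for cytochrome c, cox-4, cox-5A, cox-5B and cox-6B of complex IV, and atp-1 and atp-3 of complex V. None of the 8 assembly factors of complex IV had one, which the exact interval allows for a share of up to 36.9%. The highest share was 4 of 7 in complex IV (57.1%, interval 18.4 to 90.1%), and the lowest among the 5 complexes was 14.3%, both for 5 of 35 in complex I (4.81 to 30.3%) and for 1 of 7 in complex III (0.361 to 57.9%). Complex II had 1 of 5 (20.0%, 0.505 to 71.6%) and complex V had 2 of 10 (20.0%, 2.52 to 55.6%). In the replicates' own lists the order differed in part. In that of replicate 1, where 1.52% of all coding genes were called, complex V was highest with 2 of 10 (20.0%). Complexes III and IV had 1 of 7 each (14.3%), complex I 2 of 35 (5.71%) and complex II 0 of 5. In that of replicate 2, where 1.87% of all coding genes were called, complex IV was again highest with 2 of 7 (28.6%). Complex I was lowest with 3 of 35 (8.57%), and complex II had 1 of 5, complex III 1 of 7 and complex V 1 of 10. These intervals overlap widely, cover counting error only, and no difference between complexes was tested.

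**Figure D1:**
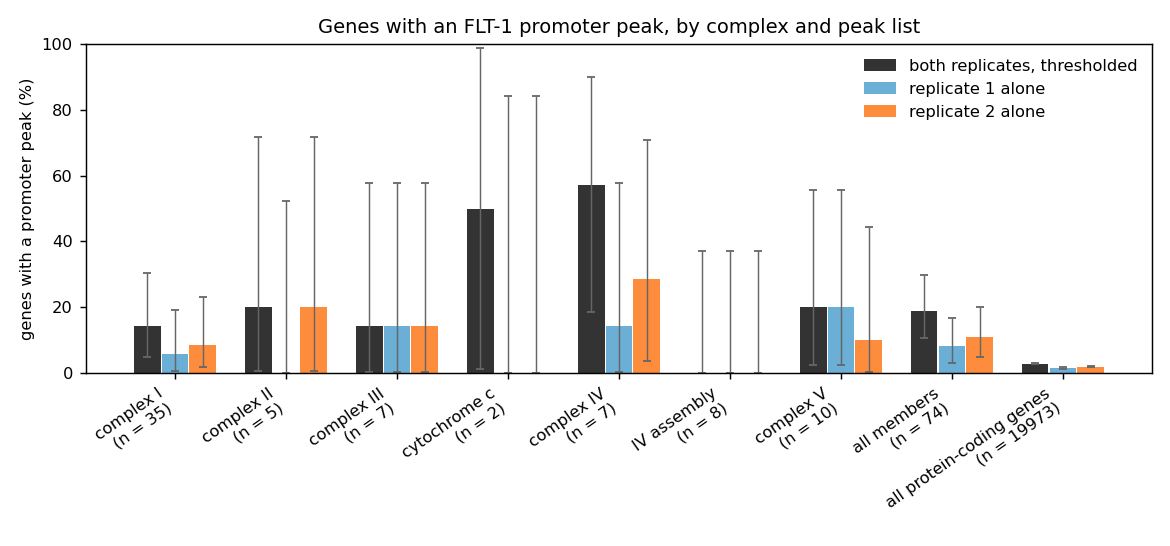
Percentage of genes with an FLT-1 promoter peak (vertical axis) for each complex, for all 74 genes and for all 19973 protein-coding genes, in the thresholded list of both replicates (black) and in the lists of replicate 1 (blue) and replicate 2 (orange). Bars are shares and lines are exact 95% intervals; complex IV stands highest at 57.1% in the list of both replicates, and the intervals of the complexes overlap.

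The DNA under 6 of the peaks, on autosomes II to IV, is printed here. All but that of cox-5A hold marked strings that recur among the peaks, also among peaks not printed. Each sequence is the deposited interval on ce11 without annotated exon bases, read from the RefSeq WBcel235 genome on the strand of the named gene. The start nearest to the summit lies to the right. For cyc-2.1 and cox-6B that is the start of a shorter transcript, and the 5′-most annotated start lies to the left. Capitals mark 3 strings: GGGCGG, read as CCGCCC on the other strand, the string AGTGCGC, read as GCGCACT, and the string GAAACGC, read as GCGTTTC. The first was on a list of motifs drawn up for the search, and the others were picked after strings of 7 letters in the peaks had been counted. The intervals are chrIII:11915713-11915927 on the minus strand for ndab-1 and chrII:11345672-11345901 on the minus strand for nduf-11. Those of mev-1, cox-5A and cox-6B are chrIII:10334024-10334253, chrIII:12905084-12905313 and chrIII:2785949-2786169 on the plus strand, and that of cyc-2.1 is chrIV:4748450-4748667 on the minus strand.
ndab-1: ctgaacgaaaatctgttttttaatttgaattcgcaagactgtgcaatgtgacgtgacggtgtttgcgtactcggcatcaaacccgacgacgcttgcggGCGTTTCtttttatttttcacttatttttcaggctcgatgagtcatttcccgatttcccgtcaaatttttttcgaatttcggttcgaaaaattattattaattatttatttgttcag
nduf-11: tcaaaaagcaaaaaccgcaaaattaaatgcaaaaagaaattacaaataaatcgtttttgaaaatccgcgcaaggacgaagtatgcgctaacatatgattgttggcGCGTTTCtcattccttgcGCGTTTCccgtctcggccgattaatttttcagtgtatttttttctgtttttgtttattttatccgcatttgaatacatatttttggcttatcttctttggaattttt
mev-1: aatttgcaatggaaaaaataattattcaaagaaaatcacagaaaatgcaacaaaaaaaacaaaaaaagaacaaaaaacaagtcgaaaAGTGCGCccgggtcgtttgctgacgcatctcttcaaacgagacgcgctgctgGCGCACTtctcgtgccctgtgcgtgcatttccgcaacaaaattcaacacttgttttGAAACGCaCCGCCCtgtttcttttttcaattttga
cyc-2.1: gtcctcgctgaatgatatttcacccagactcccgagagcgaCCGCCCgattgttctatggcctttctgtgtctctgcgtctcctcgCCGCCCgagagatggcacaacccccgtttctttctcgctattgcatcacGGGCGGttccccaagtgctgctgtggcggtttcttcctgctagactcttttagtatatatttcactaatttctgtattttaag
cox-5A: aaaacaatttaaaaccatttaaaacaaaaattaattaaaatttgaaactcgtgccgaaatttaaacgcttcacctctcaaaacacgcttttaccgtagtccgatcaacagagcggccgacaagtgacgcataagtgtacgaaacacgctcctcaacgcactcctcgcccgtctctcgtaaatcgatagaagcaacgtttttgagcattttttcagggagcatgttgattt
cox-6B: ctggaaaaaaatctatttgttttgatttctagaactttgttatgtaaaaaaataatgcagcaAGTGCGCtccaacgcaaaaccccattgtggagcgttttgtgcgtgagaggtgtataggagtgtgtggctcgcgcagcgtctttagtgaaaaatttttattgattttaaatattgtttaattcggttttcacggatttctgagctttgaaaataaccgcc
The mev-1 sequence holds all 3 strings, with AGTGCGC present in both orientations. The cyc-2.1 sequence holds GGGCGG 3 times, and nduf-11 holds GAAACGC 2 times. No capitals fall in the cox-5A sequence.

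Over all 14 peaks, in a window of 230 bp centred on the summit, GC content had a median of 37.2% and ran from 32.2% to 50.9%. The other 431 promoter peaks of the list had a median of 43.5%, and the 230 bp before every coding start had 33.0%. GGGCGG was found in 5 of the 14 windows (35.7%), those of ndua-2, mev-1, cyc-2.1, atp-1 and atp-3. It was in 19.5% of the windows of other promoter peaks and in 6.55% of the upstream stretches of all coding genes. GAAACGC was found in 5 windows, at ndab-1, nduf-11, nuo-2, mev-1 and cyc-1, and in 7.66% of other promoter peaks. AGTGCGC was found in 4 windows, those of mev-1, cyc-1 and cox-6B among them, and in 10.9% of other promoter peaks and 1.66% of all upstream stretches. Since these 2 strings were chosen on the member peaks, their counts are a description and carry no weight of their own. Of the list drawn up for the search, the run TTTTTTT was in 9 windows (64.3%) and in 36.0% of other promoter peaks. It was also in the upstream stretches of 44 of the 74 members (59.5%) and of 47.4% of all coding genes. CCAAT was in 4 windows, GAGAGA in 3 and TATAAA in 2, and in 30.9%, 30.2% and 15.5% of other promoter peaks. CTGCGTC and GTTCGA were in 1 window each, and in 13.0% and 15.3% of other promoter peaks, and CACGTG and GCGCATG were in 0, and in 5.34% and 2.09%. Each string was searched alone on both strands, and a base may count for more than 1 string.

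In complex I, the entry point for electrons from NADH, 5 of 35 genes had a peak and they ranged widely in signal. The authors' own signal per peak, whose scale the labels leave unstated, ranks peaks only within a list. The strongest lay before ndua-2, which encodes an accessory subunit, at chrI:14113217-14113319, with a signal of 129 in the thresholded list. In the replicates' own ranked lists, which hold all entries before the threshold, its signal was 73.3 in replicate 1 and 63.5 in replicate 2. Its width of 103 bp set it apart from the other 13 peaks, all 230 bp wide, the width of 827 of the 1083 peaks of the list. The summit lay at -368 bp from the ndua-2 start.

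The peak at nuo-2, for a core subunit of the matrix arm related to mammalian NDUFS3, had a signal of 83.8 (chrI:6531999-6532228), with 50.3 in replicate 1 and 30.8 in replicate 2. Its summit lay at -151 bp from the nuo-2 start, inside the 3′ UTR of T10E9.14, a coding gene on the same strand. At nduf-11, named as a complex I gene, the signal was 67.3, with 31.6 in replicate 1 and 38.1 in replicate 2. ndub-5, for an accessory subunit of the membrane arm, had 57.3, with 28.5 in replicate 1 and 31.6 in replicate 2. The lowest signal of all 14 was at ndab-1, for the mitochondrial acyl carrier protein, at 41.1, with 25.2 in replicate 1 and 30.8 in replicate 2. The catalytic core subunits nuo-1, nuo-5 and gas-1, which carry the flavin, iron-sulphur clusters or the ubiquinone site, had no peak in the thresholded list.

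Complex II, which oxidises succinate, had its peak at mev-1, for the membrane anchor subunit that is known from mutants sensitive to methyl viologen. Its signal was 77.2, with 42.1 in replicate 1 and 35.2 in replicate 2, and its summit lay at -138 bp from the start. sdha-1, sdha-2, sdhb-1 and sdhd-1, for the flavoprotein, iron-sulphur and other anchor subunits, had none. In complex III the peak was at cyc-1, for cytochrome c1 (chrI:8024584-8024813), with a signal of 103, and 48.1 in replicate 1 and 52.5 in replicate 2. Both replicate lists also called it. The cytochrome c gene cyc-2.1 had a signal of 44.1, with 26.6 in replicate 1 and 17.2 in replicate 2. That summit lay at -104 bp from the shorter annotated transcript and inside an intron of a longer one, and the 2 replicate summits were 119 bp apart, the widest gap of the 14.

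Complex IV, cytochrome c oxidase, had peaks at 4 of its 7 nuclear subunit genes. The strongest was at cox-5B (chrI:9788595-9788824), with a signal of 128, and 48.5 in replicate 1 and 70.8 in replicate 2. Its summit lay at -15 bp from the annotated start. cox-6B had 79.1, with 36.0 in replicate 1 and 42.8 in replicate 2, and cox-5A had 60.0, with 23.0 in replicate 1 and 37.3 in replicate 2. cox-4 had 48.7 (chrI:13659448-13659677), with 16.6 in replicate 1 and 25.7 in replicate 2, and its summit, at -435 bp, was the farthest of all and lay within 250 bp of the pseudogene W09C5.9. All 4 stood at a higher percentile in the ranked list of replicate 2 than in that of replicate 1, with the widest gap at cox-4 (96.3 in replicate 2 and 72.9 in replicate 1). This was not particular to complex IV, since the peaks at ndab-1, ndub-5, nduf-11 and cyc-1 did the same. Those at ndua-2, nuo-2, mev-1, cyc-2.1, atp-1 and atp-3 went the other way. cox-6A, cox-6C and cox-7C had no peak in the thresholded list.

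In complex V both peaks lay almost on the start. At atp-1, for the alpha subunit of the catalytic head (chrI:12652137-12652366), the signal was 91.0, with 52.8 in replicate 1 and 40.3 in replicate 2, and the summit lay at -25 bp from the start. At atp-3, for the stalk subunit known as OSCP (chrI:5429794-5430023), it was 53.2, with 43.5 in replicate 1 and 16.7 in replicate 2, and the summit lay at -1 bp from the start. atp-2, for the beta subunit that pairs with alpha in the head, had no peak in the thresholded list. Its strongest entry in the ranked list of both replicates had a signal of 39.7 at an IDR of 0.810, and lay at -257 bp. In the ranked comparison of replicate 1 against replicate 2 its IDR was 0.348.

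**Figure D2:**
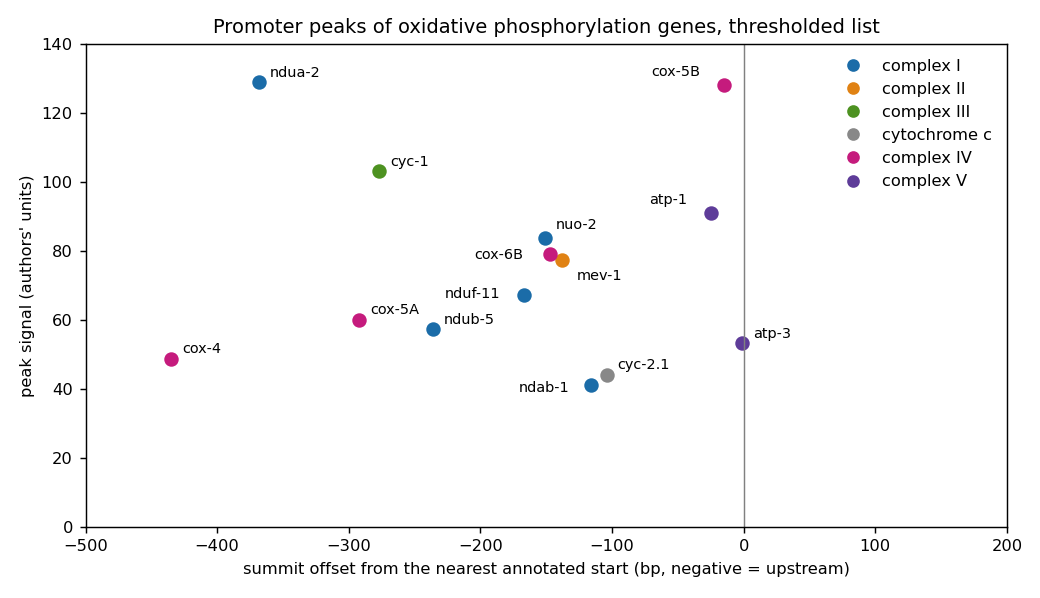
Peak signal in the authors' units (vertical axis) against the distance of the summit from the nearest annotated start of the named gene in bp, negative upstream (horizontal axis), for the 14 peaks, coloured by complex. All 14 summits lie upstream, cox-5B, atp-1 and atp-3 within 50 bp of the start and cox-4 farthest away at -435 bp.

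All 14 summits lay upstream of the nearest start of the member. Their median offset was -149 bp with quartiles of -267 and -107 bp, and the 445 promoter summits of all genes had a median of -167 bp with quartiles of -278 and -82 bp. These medians are not on the same measure. Members' offsets are from the member's own start, also where a partner's start was nearer. For all genes, each summit was measured from the nearest start of any gene whose promoter held it. In the list of replicate 1 the members' median was -94 bp over 6 genes, and in that of replicate 2 it was -210.5 bp over 8 genes, on either side of the -167 bp of all genes in the list of both replicates. Between 100 and 300 bp upstream lay 9 of the 14, and within 50 bp lay 3, at cox-5B, atp-1 and atp-3. By context, 11 summits were intergenic, those of cyc-2.1 and cox-6B were in an intron of a longer transcript of the same gene, and that of nuo-2 was in the 3′ UTR of its neighbour. No tRNA, snRNA or snoRNA gene lay within 250 bp of any of them. Within that distance lay the piRNA gene 21ur-12279 at atp-1 and the ncRNA genes F27C1.16 and F27C1.17 at atp-3. The signal was ordinary for the list: the median was 72.3, against 72.8 over all promoter peaks and 75.4 over all 1083 peaks, and 7 of the 14 were at or above the value of 75.4.

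The replicates differed in which of these peaks passed their own thresholds. Promoters of 6 members were called in replicate 1, where 1.52% of all coding genes were, and of 8 in replicate 2, where 1.87% were. The peaks at ndua-2, cyc-1, cox-5B and atp-1 overlapped a peak in both lists. Those at nuo-2 and atp-3 did so in replicate 1 alone, and those at nduf-11, mev-1 and cox-5A in replicate 2 alone. The remaining 5, at ndab-1, ndub-5, cyc-2.1, cox-4 and cox-6B, were in neither list. ndua-8, for an accessory subunit of complex I, was called in replicate 2 with a signal of 35.9 and not in the list of both replicates.

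Before the thresholds, all 14 peaks overlapped an entry of both replicates. There the median percentile of signal was 98.4 in replicate 1 and 98.2 in replicate 2. The lowest percentiles were 72.9 for cox-4 in replicate 1 and 85.5 for atp-3 in replicate 2. The replicate summits lay a median of 22.5 bp apart and within 30 bp of each other at 10 of the 14 genes. The shorter list that the authors name conservative held 10 of the 14, where 2.63% of all coding genes had a peak. It left out cyc-2.1, cox-4, cox-5A and atp-3, whose IDR in the ranked comparison of the replicates was 0.0502 at cyc-2.1, 0.297 at cox-4, 0.0143 at cox-5A and 0.0584 at atp-3.

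**Figure D3:**
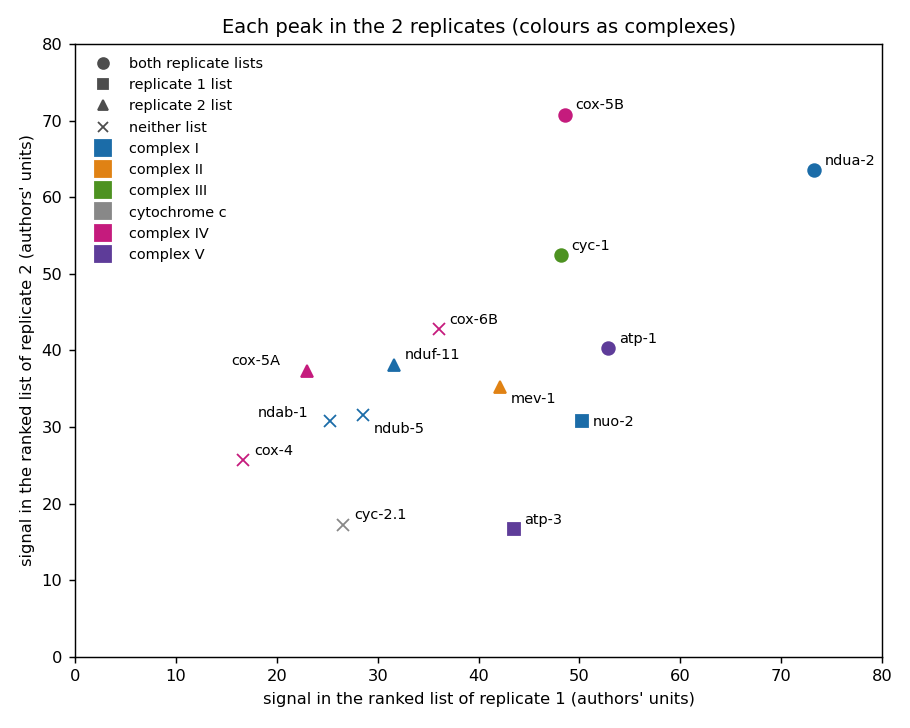
Signal of each of the 14 peaks in the ranked list of replicate 1 (horizontal axis) and of replicate 2 (vertical axis), in the authors' units, with symbols for the replicate lists that called the peak and colours for the complex. The 4 peaks called in both lists, at ndua-2, cyc-1, cox-5B and atp-1, have at least 48.1 in replicate 1 and 40.3 in replicate 2, and atp-3 lies low in replicate 2 at 16.7.

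Of the 14 summits, 7 lay in the promoter window of a second coding gene that starts nearby on the opposite strand, and 138 of all 445 promoter summits (31.0%) lay in several promoters. In complex I these were ndab-1 with npp-16, a nuclear pore gene, whose starts were 216 bp apart, ndua-2 with dnj-29, a DnaJ-domain gene, at 528 bp, and ndub-5 with eif-2D, a translation initiation factor gene, at 368 bp. mev-1 shared its peak with jmjd-4, a JmjC-domain gene, at 259 bp, and cox-6B with Y71H2AM.20 at 254 bp. In each of these 5 pairs the summit was nearer to the partner, at -100 bp from npp-16, -160 bp from dnj-29, -132 bp from eif-2D, -121 bp from jmjd-4 and -107 bp from Y71H2AM.20. In complex V the order was the other way round. The summit at atp-1 was at -25 bp from atp-1 and -165 bp from mcrs-1, whose starts were 190 bp apart, and that at atp-3 was at -1 bp from atp-3 and -248 bp from F27C1.2, whose starts were 249 bp apart.

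Divergent arrangement was frequent among these genes with or without a peak. A divergent coding start lay within 1000 bp of 39 of the 74 genes (52.7%) and of 18.8% of all coding genes. A peak was present at 7 of the 39 with such a neighbour (17.9%) and at 7 of the 35 without (20.0%). Over all coding genes the shares were 8.30% with a divergent neighbour and 1.63% without. No difference between these shares was tested.

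**Figure D4:**
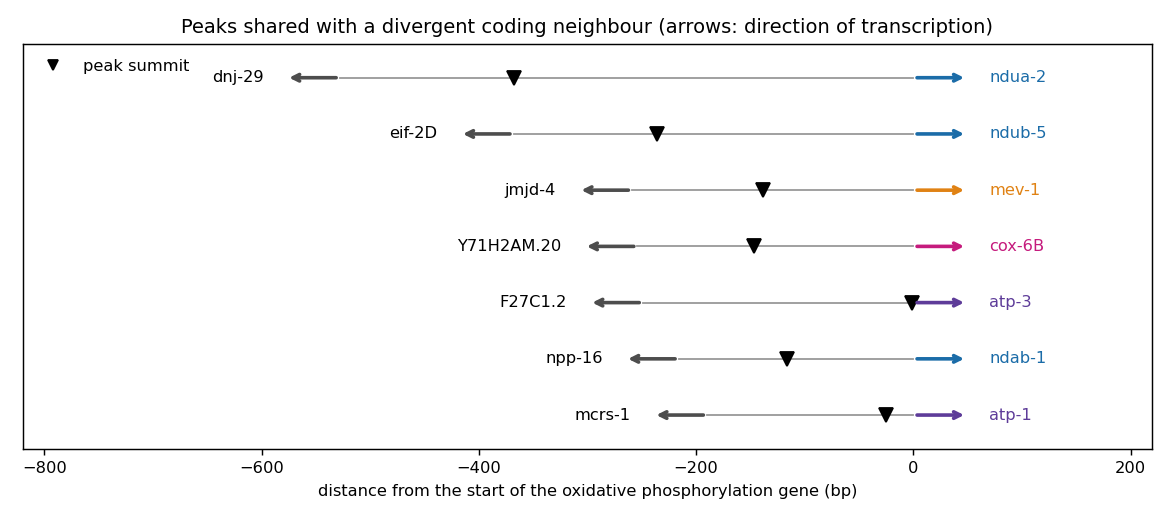
Position of the FLT-1 summit between the starts of the 7 oxidative phosphorylation genes and their divergent partners, in bp from the start of the oxidative phosphorylation gene (horizontal axis), with 1 row per pair. The summits of ndab-1, ndua-2, ndub-5, mev-1 and cox-6B lie nearer to the partner, and those of atp-1 and atp-3 nearer to the named gene.

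The ranked list of both replicates, before the threshold, shows what lay at the genes without a called peak. A promoter entry was present at 49 of the 74 genes (66.2%, interval 54.3 to 76.8%), where 36.5% of all coding genes had one. In the ranked comparison of the replicates 52 genes had an entry, where 36.1% of all coding genes did, in the ranked list of replicate 1 it was 39, where 38.3% did, and in that of replicate 2 it was 53, where 34.5% did. The strongest entry per gene had a median signal of 33.5 over these 49 genes and of 23.2 over all coding genes with an entry. At or above 41.1, the lowest signal among the 14 called, stood 19 genes, where 4.94% of all coding genes did. That limit was set by the called genes, so the 14 are among the 19 by definition. At an IDR of 0.05 or below stood 17 genes, where 3.89% of all coding genes did, and the 3 added to the 14 were ndua-8, ucr-2.1 and asb-2.

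In complex I the strongest entry without a called peak was at ndua-8, with a signal of 53.0 at an IDR of 0.0254 and an offset of -263 bp. It had 35.9 in replicate 2 and no promoter entry in the ranked list of replicate 1. In complex III, isp-1, for the Rieske iron-sulphur protein, had 51.1 at an IDR of 0.738, with 30.5 in replicate 1 and 15.7 in replicate 2. Its signal was above that of ndab-1, cyc-2.1 and cox-4, which were called. ucr-2.1, for a core protein of complex III, had 45.6 at an IDR of 0.0306. In complex V, asg-2, for a subunit g of the ATP synthase, had 47.2 at an IDR of 0.0600 and an offset of -197 bp. Replicate 2 had an entry of 27.7 at -194 bp, and the promoter entry of replicate 1, of 11.1, lay elsewhere, 160 bp past the start. asb-2, for a subunit b, had 43.3 at an IDR of 0.0203, with 18.5 in replicate 1 and 27.7 in replicate 2. These IDRs are from the ranked list of both replicates. In the ranked comparison of the replicates the IDR was 0.644 at ndua-8, 0.0970 at isp-1, 0.08425 at ucr-2.1, 0.132 at asg-2 and 0.134 at asb-2. ndua-1 of complex I, with a signal of 39.3, had 0.0196 in that comparison and 0.771 in the list of both replicates. The entries at sdha-1 of complex II (14.6), cox-6C of complex IV (30.6) and cox-16 among the assembly factors (29.3) were weaker. At the other end, 10 genes had no promoter entry in any ranked list. They were ndub-2, ndub-3, nduf-5, nuo-3, nuo-4 and nuo-6 of complex I, sdhd-1, cyc-2.2, cox-7C and cox-15.

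**Figure D5:**
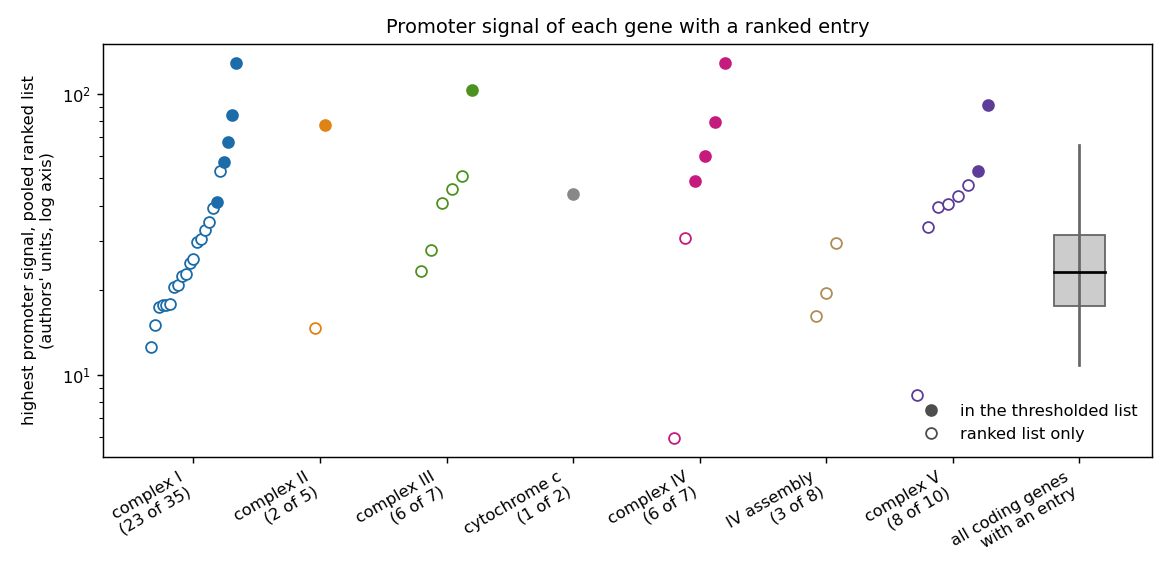
Signal of the strongest promoter entry of each gene in the ranked list of both replicates, in the authors' units on a log axis (vertical), by complex, with filled circles for called peaks and open circles for other entries; the grey box spans the 25th to 75th percentile over all coding genes with an entry, with the median as a line and whiskers at the 5th and 95th. The called peaks run from 41.1 at ndab-1 to 129 at ndua-2, and entries such as isp-1 at 51.1 reach that range without being called.

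Of 6 pairs of copies of a subunit, 2 had a called peak at 1 copy, as read beside the ranked lists of both replicates and of each. Over all 74 members 18.9% of genes had a called peak. That is a share of genes, and a pair can be counted through either copy, so the count of pairs is not comparable with it. The family of ucr-2.1, ucr-2.2 and ucr-2.3 was not among the pairs, and none of its genes was called. In the list of both replicates ucr-2.1 had an entry of 45.6, ucr-2.2 one of 40.7 and ucr-2.3 none. cyc-2.1 had its called peak and cyc-2.2, the second cytochrome c gene, had no entry in any ranked list. ndab-1 was called, and ndab-2 had an entry in replicate 2 alone, of 5.65. asb-2 and asg-2 had the ranked entries given above. Among these lists their copies asb-1 and asg-1 had entries in that of replicate 2 alone, of 9.62 and 10.3. In the ranked comparison of the replicates asb-1 also had an entry, of 18.4. sdha-1 and sdha-2 were close in replicate 2, at 12.7 and 10.9, and neither was called. nduf-2.2 had an entry of 20.6 at an IDR of 0.904 in the list of both replicates, and gas-1 had none in these lists. In the ranked comparison of the replicates both copies had an entry, gas-1 of 22.4 at an IDR of 0.775 and nduf-2.2 of 20.6 at 0.691.

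The called genes were unevenly placed. On chromosome I lay 7 of the 14, out of 20 genes there, on II 2 of 11, on III 4 of 18 and on IV 1 of 11, and the 8 genes on V and the 6 on X had none. Over all coding genes the share with a promoter peak was 4.07% on I, 2.75% on II, 4.24% on III, 2.68% on IV, 1.92% on V and 2.45% on X. The difference between chromosomes was not tested.

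Other genes of energy metabolism were read in 5 lists drawn up by gene name, whatever part of the cell the enzymes work in. The lists named 57 genes, of which 55 matched the annotation. Of these 55, 5 had a promoter peak in the thresholded list (9.09%, interval 3.02 to 20.0%), where 2.88% of all coding genes had one. The list named for the tricarboxylic acid cycle and pyruvate dehydrogenase gave 4 of 23 (17.4%, interval 4.95 to 38.8%). The strongest, at idhg-1, for a subunit of NAD-dependent isocitrate dehydrogenase, had a signal of 251, above all 14 oxidative phosphorylation genes, and was called in both replicates. idhb-1, for another subunit of that enzyme, had 62.2, and dlst-1, for the succinyltransferase of the 2-oxoglutarate dehydrogenase complex, had 72.0. suca-1, for a subunit of succinyl-CoA ligase, had 71.1. Of these, dlst-1 was called in replicate 2 alone, and idhb-1 and suca-1 in neither replicate. Among 14 genes for assembly and regulation of the complexes, sco-1, for a copper chaperone of complex IV, had a peak with a signal of 70.7, called in replicate 1 alone. The 8 genes of ubiquinone synthesis, the 4 adenine nucleotide carriers and the 6 other electron carriers had none.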

How the data were processed

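The report rests on 8 peak lists from chromatin immunoprecipitation of FLT-1 in 2 replicates of 1 group, on ce11 per the file lists deposited with them. The authors deposited, for each peak, a signal on an unstated scale, a whole-number score up to 1000, a summit position and, in ranked lists, the −log10 of the IDR. In the ranked list of both replicates the score lay within 1 of 125 times the log2 of 1/IDR. For the aligner and peak caller, names and versions were not given in the sources used here. Peaks were called by the authors for each replicate and on both together, so replicates were compared through their own lists, with an overlap of at least 1 bp. Read counts were not analysed here, so depth is unknown, and with 1 group no test between conditions was possible.

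Summits were assigned to the promoters of 19973 protein-coding genes (Ensembl release 115, names from RefSeq matched by gene identifier for 46881 of 46926 genes) in Python 3.11.15 with NumPy 2.4.6, intervals came from SciPy 1.17.1, and figures from Matplotlib 3.10.9. The assignment was tested on simulated data. Mitochondrial DNA was left out. Named genes were all members with a promoter peak, their partners on the opposite strand, the strongest entry per complex without a called peak, members that differed between replicates, and other pathway genes with a peak. Others named beside them were chosen after their values were seen. The members and lists were chosen with earlier results of these data known. Alternatives were other promoter windows, start sets, peak lists, gene names and IDR limits, and leaving out each replicate. The sequence of 1 further peak is not reported here.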

Additional observations from a re-analysis of the deposited data

How the results depend on the processing

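Of 105 alternative values, 88 stayed within the spread or interval of the reported value and 17 did not. For the median offset and percentile, that spread was the one between the 2 single-replicate values, which were also among the alternatives. Some settings could not change a group's count, and many intervals were wide. The number that stayed is therefore no measure of robustness. Leaving out each replicate in turn gave a share for all 74 genes of 8.11 to 10.8%, for complex II of 0 to 20.0%, for cytochrome c of 0% both times and for complex IV of 14.3 to 28.6%. It gave a median percentile of the members' signal within the list of 32.7 to 34.2, where the reported list gave 46.0, and a median offset of -210.5 to -94 bp, where it gave -149 bp. Peaks at or above the median signal gave 9.46% for all members, where 1.35% of all coding genes were called, and 0% for cytochrome c. The conservative list gave 0% for cytochrome c and a median percentile of 50.8. Counting the nearest start alone gave 0% for complex II, since mev-1 went to jmjd-4, and 9 members in all, where 2.19% of coding genes were called. A window of 250 bp on either side gave 0% for complex III and 10 members, where 1.87% of coding genes were called. The 5′-most start alone gave 0% for cytochrome c. Divergent neighbours were at 35.1% of members within 500 bp, where 9.88% of all coding genes had one, and at 64.9% within 2000 bp, where 29.2% did. Ranked entries at an IDR of 0.05 or below gave 23.0%. A window of 1000 bp upstream gave 18 members, with cox-6A, nduc-2, nduf-2.2 and nduf-9 added, where 3.76% of coding genes were called. No paired analysis was possible because there was 1 group. Depth is unknown, and with 2 to 35 genes per complex the intervals are wide.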

Other observations

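Some members follow another coding gene on the same strand closely, as in C. elegans operons. A same-strand coding gene ended within 500 bp upstream of 23 of the 74 genes (31.1%) and of 18.7% of all coding genes. This grouping was chosen after the data had been seen. Of the 23, nduf-11, nuo-2, cyc-1 and cyc-2.1 had a peak of their own, where 2.88% of all coding genes, in runs or not, had one. A further 3 had none of their own, and the thresholded list held a peak at a gene upstream in the run. These were nduc-2 behind cox-6B, with the cox-6B summit 797 bp upstream of the nduc-2 start, ucr-11 behind dad-1, and cox-11 behind JC8.4 and lin-54, with the peak at lin-54. cyc-2.1 lay behind rpl-18A, a ribosomal protein gene, and both had a peak. With or without a peak of their own, 4 of the 23 members had a peak at a gene upstream in the run. Counted the same way over all coding genes in such runs, 265 (7.09%) did. Whether any of these runs is transcribed as 1 unit was not tested.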
